A study of Bos taurus with 10 samples.

Results

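Nuclear receptors are transcription factors that bind DNA through a zinc finger domain, and many of them change their activity when a small lipid-soluble ligand enters a pocket of the same protein. Others, the orphan receptors, have no established ligand, and their output follows more closely how much of the protein is made. Many act as partners of a retinoid X receptor, and all depend on coactivators and corepressors. The corpus luteum, the ovarian gland that forms after ovulation and secretes progesterone, is known for the receptors that run its steroid synthesis, and the genes described here lie outside that core. They comprise receptors of the circadian clock, sensors of oxysterols, bile acids, foreign compounds and fatty acids, the corticosteroid and vitamin D receptors, the retinoid receptors, the NR2 and NR6 orphans, the NR4A family, the estrogen-related receptors and HNF4.

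The list held 37 gene symbols, and a gene was taken as measured when a probeset of the array was annotated to its symbol alone. This left 35 receptors among 18010 genes measured in the same way, each with exactly 1 probeset. NR1D1, a heme-binding repressor of the clock, shared its probeset with THRA, a gene that overlaps it in the cattle gene table (ARS-UCD2.0), and RARB, a retinoic acid receptor, was named by no probeset. NR1D1 and RARB were not analysed here.

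Total RNA came from corpora lutea of cows (Bos taurus) collected 7 days into the estrous cycle. The cows had received selenium in different forms, which the labels call ISe and MIX without saying what each contained. Each group held 5 corpora lutea, each hybridised to 1 whole-transcript array, and there was no group without supplement. The labels name neither breed nor age, nor do they say whether each sample came from a separate cow, and the p-values therefore rest on sample-to-sample spread that may be technical; the number of arrays limits the precision. Values are log2 signals per probeset as deposited, with array medians between 5.99 and 6.04, and signals of different probesets are not comparable as transcript levels. The tissue label was checked against luteal markers: CYP11A1, the enzyme that starts steroid synthesis from cholesterol, lay between 12.94 and 13.06 on the 10 arrays, close to the highest value of the table, 14.17. MIX 8 and MIX 1 stood apart from the other arrays on the first and second principal components of all probesets (distances from the centre of 32.8 and 26.6), so the 16 receptors whose difference moved by over 0.05 log2 without both are also given that way.

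The design allows a single comparison, MIX against ISe, of luteal transcripts under the different selenium supplements. No receptor differed between the groups past the adjusted threshold: limma called 0 of the 35, as it called 0 of the 19145 probesets tested (0%), and the adjusted p-values of the receptors ran from 0.941 to 0.999. NR1I2 alone had an unadjusted p under 0.05, which is 2.86% of the receptors against 4.79% of all probesets. The MIX and ISe samples overlapped for each of the 35 receptors, while they did not overlap for 0.642% of all probesets. Of the receptors, 17 had a higher and 18 a lower mean in MIX, with a median log2 difference of -0.001 against 0.001 over all probesets. The median size of the difference, in either direction, was 0.07 log2 for the receptors and 0.07 log2 for all probesets.

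**Figure D1:**
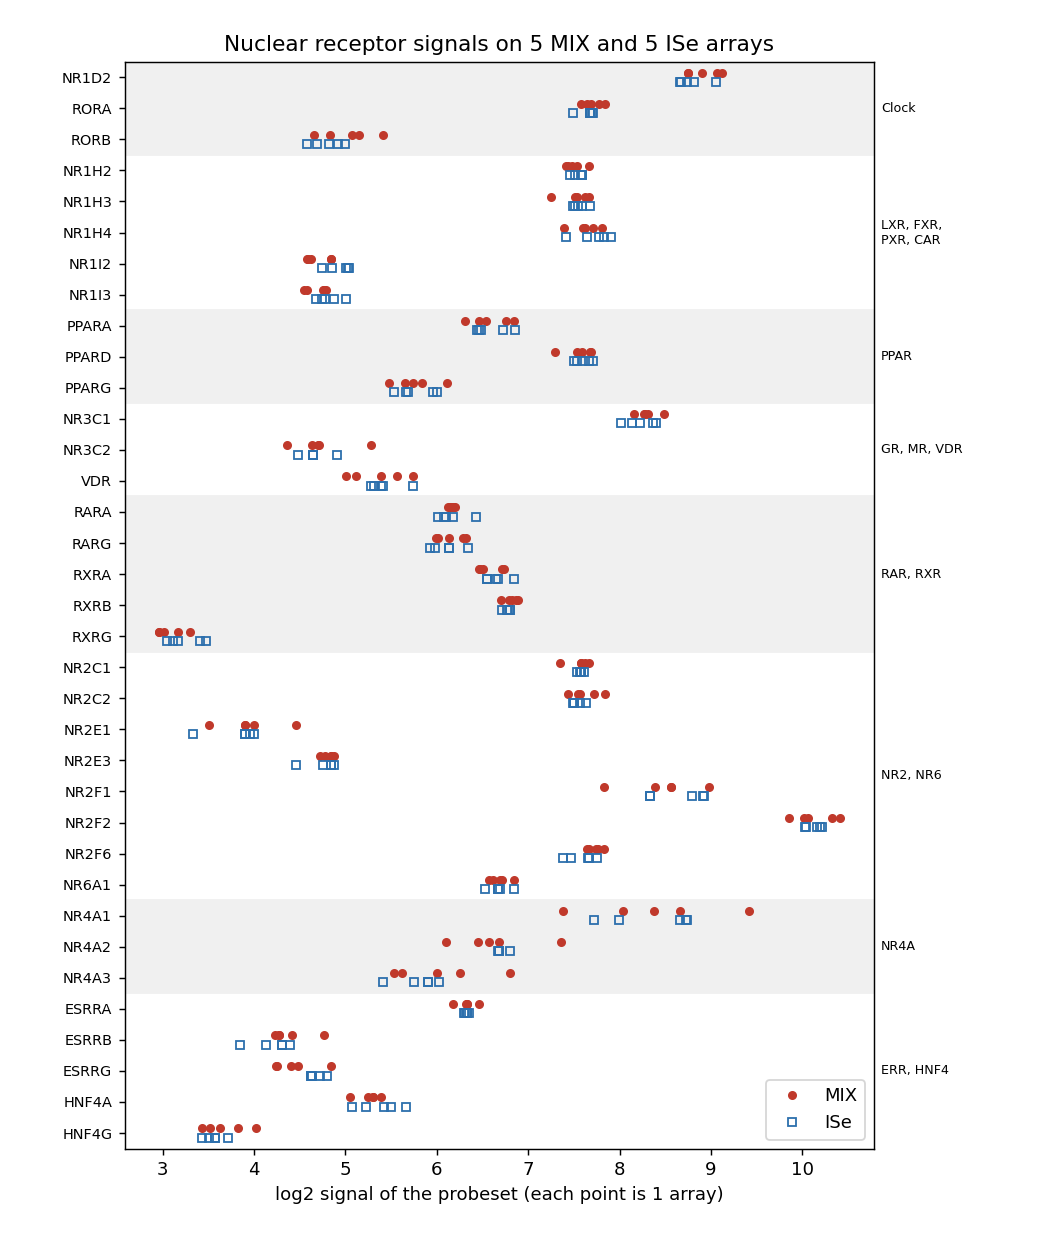
Log2 signal (x axis) of the 35 receptors (rows, grouped by role), with 1 filled circle for each of the 5 MIX arrays and 1 open square for each of the 5 ISe arrays. The groups overlap in every row, and NR4A1 has the widest scatter, from 7.38 to 9.42.

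The intervals of most differences were narrow. They rest on the same sample-to-sample spread as the p-values, which may be technical. For 20 of the 35 receptors the 95% interval of the fold change, MIX over ISe, lay between 0.8 and its inverse, a share of 57.1% against 60.5% of all probesets. The bounds over all receptors reached 0.594 and 1.70, and both came from NR4A1. Signal also limited what could be seen. The mean of 10 receptors (RORB, NR1I2, NR1I3, NR3C2, NR2E1, NR2E3, RXRG, ESRRB, ESRRG and HNF4G) lay among the dimmest 25% of the probesets tested, below 4.95. The table gives no detection call, so whether these transcripts were present cannot be read from it, and their intervals describe the signal.

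**Figure D2:**
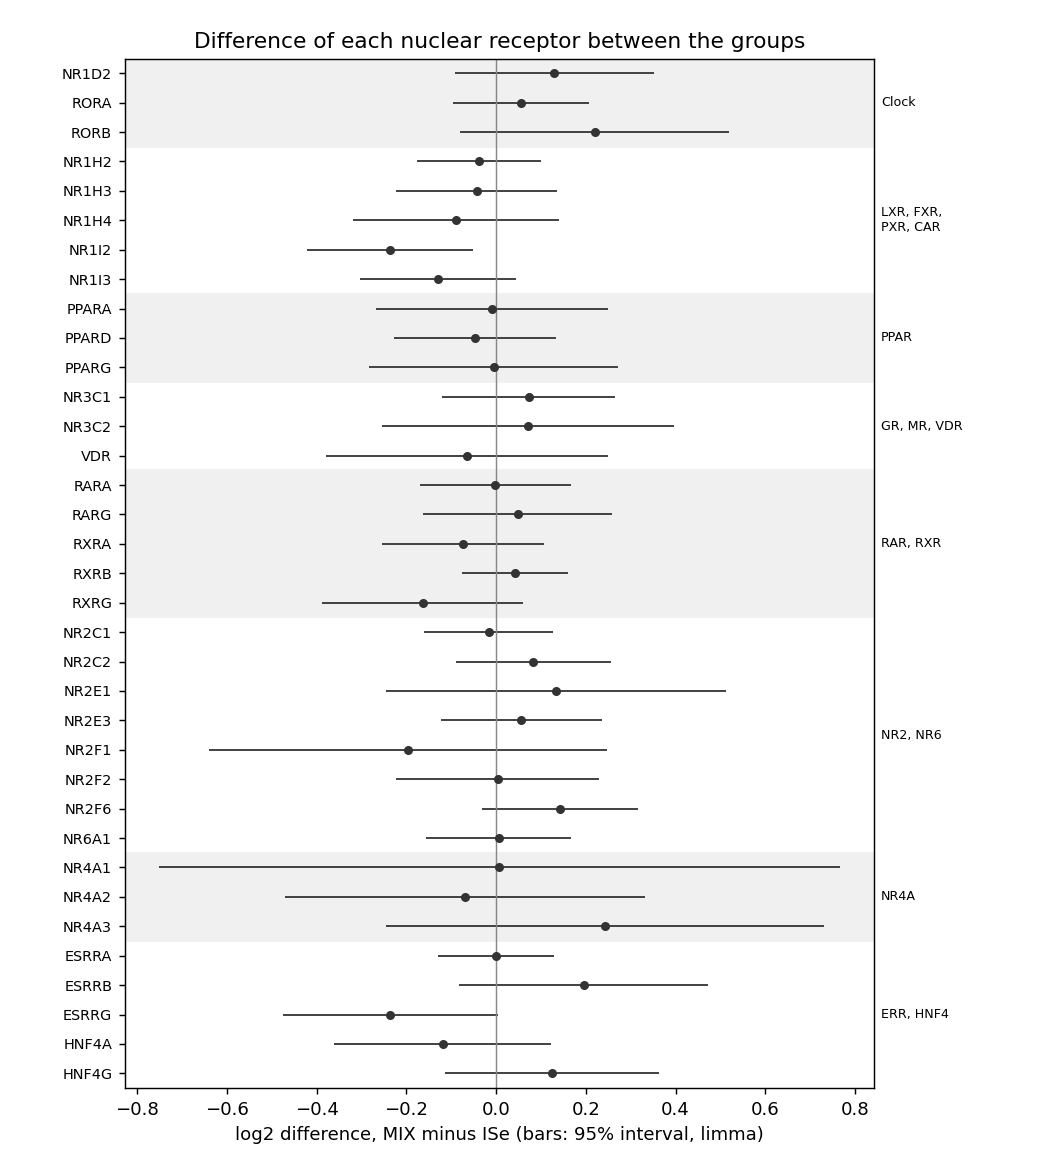
Log2 difference, MIX minus ISe, of each receptor (points) with its 95% interval from limma (bars), grouped by role. The interval of NR1I2 (-0.42 to -0.05) is the one that leaves out 0, and that of NR4A1 (-0.75 to 0.77) is the widest.

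Among the receptors of the circadian clock, NR1D2, RORA and RORB each had a higher mean in MIX, and none passed the test. NR1D2, a repressor closely related to NR1D1, read 9.07, 9.12, 8.75, 8.91 and 8.75 in MIX 1, 8, 9, 10 and 11, and 9.06, 8.67, 8.74, 8.66 and 8.82 in ISe 2, 3, 5, 6 and 7. MIX 1, MIX 8 and ISe 2 were thus the high samples, and the groups overlapped. The log2 difference was 0.13 ± 0.10 (SE; adjusted p = 0.941, limma), and it was 0.01 without MIX 1 and MIX 8. RORA, an activator that competes with NR1D2 for the same DNA elements, averaged 7.70 ± 0.11 in MIX and 7.65 ± 0.09 in ISe (± SD, 5 arrays per group), a difference of 0.06 log2 that was -0.01 without MIX 1 and MIX 8. RORB, best known from retina and brain, averaged 5.02 ± 0.29 and 4.80 ± 0.17. Its difference of 0.22 log2 was 0.31 without MIX 10 and 0.12 without MIX 9, its highest sample.

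The 16 measured genes of the clock that work with these receptors had a median difference of 0.02 log2, with 10 higher and 6 lower in MIX and 0 past the adjusted threshold. PER3, a period protein of the repressor arm, was the only one with an unadjusted p under 0.05, at 6.71 ± 0.17 in MIX and 6.44 ± 0.11 in ISe (± SD, 5 arrays per group), a log2 difference of 0.27 ± 0.09 (SE; adjusted p = 0.941, limma). PER1, a period gene that glucocorticoids also induce, stood at 0.39 ± 0.21, CRY2, a cryptochrome, at -0.12 ± 0.06 and BHLHE41, a repressor of clock output, at -0.28 ± 0.19 (log2 difference ± SE).

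The labels do not give the hour of collection, so its part in the signals of the clock receptors and clock genes was not tested. Across the 10 arrays NR1D2 was set against 4 clock genes, in place of the planned pairs with NR1D1. ARNTL encodes BMAL1, the activator whose gene NR1D2 represses. Its signal was lowest in MIX 10 (6.17) and ISe 2 (6.23) and highest in MIX 9 (6.93), and it ran against NR1D2 with r = -0.621 (rho = -0.661). After adjustment over the 18 pairs computed, the permutation p-values were 0.217 for r (unadjusted 0.056) and 0.195 for rho (unadjusted 0.0433), so this relation did not pass. Without MIX 1 and MIX 8, the samples farthest from the median of NR1D2, r was -0.811 and did not pass. The adjusted exact permutation p was 0.202 with these samples left out of every pair. It was 0.370 with the farthest samples of each pair left out instead. On deviations from the group means r was -0.618. DBP, a clock output activator, had r = 0.612 with NR1D2 (rho = 0.673), and 0.401 without MIX 1 and MIX 8. NFIL3 had r = -0.235 (rho = -0.188) and PER2 had r = 0.255 (rho = 0.382) with NR1D2, and RORA had r = 0.0608 (rho = 0.115) with ARNTL, and none of these passed either.

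The receptors for oxysterols, bile acids and foreign compounds all had lower means in MIX, and 1 of the 5 had an unadjusted p under 0.05. That gene was NR1I2, the pregnane X receptor, which senses drugs and steroids and induces their breakdown in the liver. It read 4.62, 4.60, 4.85, 4.85 and 4.58 in MIX 1, 8, 9, 10 and 11, and 5.03, 4.75, 5.00, 5.04 and 4.85 in ISe 2, 3, 5, 6 and 7. MIX 1, MIX 8 and MIX 11 lay below every ISe sample, while MIX 9 and MIX 10, which carried the same value to 5 decimals, lay above ISe 3. The means were 4.70 ± 0.14 and 4.93 ± 0.13 (± SD, 5 arrays per group), a log2 difference of -0.24 ± 0.08 (SE; unadjusted p = 0.0173, adjusted p = 0.941, limma), which does not pass. Without MIX 1 and MIX 8 the difference was -0.18, with an unadjusted p of 0.103 by limma. The gene lay among the dimmest 25% of the probesets.

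NR1I3, the constitutive androstane receptor and the nearest relative of NR1I2 in this list, stood at -0.13 ± 0.08 (log2 difference ± SE) and at -0.05 without MIX 1 and MIX 8, also at dim signal. NR1H4, the bile acid receptor, averaged 7.63 ± 0.16 in MIX and 7.72 ± 0.19 in ISe (± SD, 5 arrays per group), with its lowest values in MIX 8 (7.39) and ISe 6 (7.42) and its highest in ISe 7 (7.91). Its log2 difference was -0.09, and -0.04 without MIX 1 and MIX 8. The oxysterol receptors, which turn on cholesterol efflux, differed by less than the median size of 0.07 log2. NR1H2, the ubiquitous form, had a fold change of 0.974 (95% interval 0.885 to 1.07). NR1H3, the form of liver, fat and macrophages, read 7.53, 7.25, 7.62, 7.67 and 7.51 in MIX 1, 8, 9, 10 and 11, and 7.67, 7.59, 7.49, 7.51 and 7.54 in ISe 2, 3, 5, 6 and 7. Its lowest value was that of MIX 8, and the other 9 arrays lay within 7.49 to 7.67. Its log2 difference was -0.04, with a 95% interval from -0.22 to 0.14, and 0.04 without MIX 1 and MIX 8.

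Of 10 genes that oxysterol receptors are known to activate, 8 had higher and 2 lower means in MIX, with a median of 0.08 log2 and 0 past the adjusted threshold. SREBF1, the master regulator of fatty acid synthesis, was the only one with an unadjusted p under 0.05, at 6.75 ± 0.07 in MIX and 6.57 ± 0.07 in ISe (± SD, 5 arrays per group). SMPDL3A, a phosphodiesterase, stood at 0.23 ± 0.16, ABCA1, the cholesterol exporter, at 0.11 ± 0.09 and SCD, the desaturase of fatty acids, at 0.08 ± 0.05 (log2 difference ± SE), the last with groups that did not overlap. Without MIX 1 and MIX 8, 0 of the 10 had an unadjusted p under 0.05 by limma.

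Macrophages are a major site of NR1H3 in other tissues, and their markers differed in mean between the groups. All 14 measured macrophage markers had a higher mean in MIX, 13 of them with an unadjusted p under 0.05 and 0 past the adjusted threshold, with a median difference of 0.50 log2. The mean of the list, as a deviation from the average over the 10 arrays, ran from 0.09 to 0.34 in MIX and from -0.47 to 0.04 in ISe. The list was drawn up with this difference known, so it is no separate evidence. NR1H3 had r = -0.327 with the macrophage mean (rho = -0.200) and r = -0.502 with ABCA1 (rho = -0.248). Without ISe 2 and MIX 8, the samples farthest from its median, these became 0.591 and 0.540, and no adjusted p passed, so neither relation held a direction. In whole tissue, more cells of a type and more RNA per cell cannot be told apart, and the part of macrophages in any receptor's signal was not tested.

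The fatty acid receptors PPARA, PPARD and PPARG differed by less than 0.05 log2 between the groups over all arrays, and PPARA stood at -0.16 without MIX 1 and MIX 8. PPARA, which drives fatty acid oxidation, averaged 6.58 ± 0.22 in MIX and 6.59 ± 0.18 in ISe, and PPARD, the broadly expressed form, 7.55 ± 0.16 and 7.60 ± 0.08 (± SD, 5 arrays per group). PPARG, the regulator of fat cell formation that also acts in macrophages and the ovary, read 5.74, 5.65, 5.48, 6.11 and 5.84 in MIX 1, 8, 9, 10 and 11, and 5.69, 5.66, 6.00, 5.96 and 5.53 in ISe 2, 3, 5, 6 and 7. MIX 10 and MIX 9 were the extremes of all 10 samples. The fold change of PPARG was 0.996 (95% interval 0.822 to 1.21).

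The 15 measured targets of these receptors had a median difference of -0.02 log2, with 7 higher and 8 lower in MIX. FABP3, a carrier of fatty acids in muscle and other tissues, was the only one with an unadjusted p under 0.05. It averaged 12.28 ± 0.12 in MIX and 11.84 ± 0.21 in ISe (± SD, 5 arrays per group), a log2 difference of 0.43 ± 0.10 (SE) with groups that did not overlap (adjusted p = 0.926, limma), which does not pass. PLIN2, a coat protein of lipid droplets, stood at -0.26 ± 0.14, SLC25A20, the carnitine carrier of mitochondria, at -0.18 ± 0.10 and CPT1A, the gate of fatty acid entry into mitochondria, at 0.15 ± 0.09 (log2 difference ± SE).

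PPARG ran with FABP4, a fatty acid carrier of fat cells and macrophages, at r = 0.645 (rho = 0.576, adjusted permutation p = 0.126 and unadjusted p = 0.014 for r). Without ISe 5 and MIX 10 r was 0.136, so the relation rested on those samples. FABP4 itself averaged 3.21 ± 1.38 in MIX and 2.58 ± 0.33 in ISe (± SD, 5 arrays per group), below most of the table. MIX 10 alone, at 5.68, set the MIX mean and SD, since the other MIX samples read 2.46 to 2.79. FABP4 in ISe 5 was 2.97. FABP4 is one of 6 adipocyte markers, whose mean was 0.46 in MIX 10 and -0.16 to 0.11 on the other 9 arrays, as deviations from the average. Without FABP4 the mean of the other 5 was -0.01 in MIX 10, inside the range of the other arrays (-0.17 to 0.11). The part of fat cells in the PPARG signal was not tested. PPARG had r = 0.154 with the macrophage mean (rho = 0.0303) and PPARA had r = -0.360 with CPT1A (rho = -0.345).

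The corticosteroid and vitamin D receptors did not differ past the threshold. NR3C1, the glucocorticoid receptor, averaged 8.30 ± 0.12 in MIX and 8.23 ± 0.16 in ISe (± SD, 5 arrays per group), with a log2 difference of 0.07 (95% interval -0.12 to 0.26). NR3C2, the mineralocorticoid receptor, which also binds progesterone, was dim at 4.74 ± 0.33 and 4.67 ± 0.16, with MIX 11 at 5.28 and MIX 1 at 4.36 as its extremes. Its 3 samples ISe 5, ISe 6 and ISe 7 carried the same value to 5 decimals, which narrows the spread of that group. The log2 difference of NR3C2 was 0.07, and 0.21 without MIX 1 and MIX 8. VDR, the vitamin D receptor, had its highest values in MIX 1 and ISe 3, both 5.74, and its lowest in MIX 11 (5.01) and MIX 10 (5.11), and stood at -0.06 ± 0.14 (log2 difference ± SE). The difference of VDR was -0.26 without MIX 1 and MIX 8, with an unadjusted p of 0.0666 by limma.

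The 12 measured genes of corticosteroid response and receptor folding had a median difference of 0.03 log2, with 7 higher and 5 lower in MIX and 0 at an unadjusted p under 0.05 by limma. The smallest p-values belonged to PER1, given above, then TSC22D3, the glucocorticoid-induced leucine zipper, at 0.19 ± 0.13, FKBP4, a co-chaperone of the receptor, at 0.08 ± 0.06 and HSD11B2, which inactivates cortisol, at 0.19 ± 0.19 (log2 difference ± SE). NR3C1 ran against FKBP5, a glucocorticoid-induced co-chaperone that lowers the receptor's affinity, at r = -0.542 (rho = -0.564, adjusted permutation p = 0.265 and unadjusted p = 0.103 for r), and at -0.634 without MIX 1 and ISe 6, which did not pass. The 7 vitamin D genes had differences between -0.07 and 0.06 log2 and 0 unadjusted p-values under 0.05 by limma. S100G, a calcium-binding protein, stood at -0.07 ± 0.08, CALB1, another, at 0.06 ± 0.09, TRPV6, a calcium channel, at 0.06 ± 0.10 and CYP27B1, which activates vitamin D, at -0.04 ± 0.10 (log2 difference ± SE).

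Of the retinoid receptors, 2 had higher and 3 lower means in MIX, and none passed the test. RARA, the widely expressed retinoic acid receptor, read 6.12 to 6.20 over the 5 MIX samples and 6.01 to 6.43 over the 5 ISe samples, where ISe 5 held the highest value. RARG, the form best known from skin and cartilage, averaged 6.15 ± 0.15 and 6.10 ± 0.16 (± SD, 5 arrays per group). RXRA and RXRB, partners of many of the receptors described here, stood at -0.07 ± 0.08 and 0.04 ± 0.05 (log2 difference ± SE). RXRB was the most even receptor of all, with 6.70 to 6.89 over the 10 arrays, and the interval of its fold change, 0.948 to 1.12, was the narrowest. RXRG, a form of muscle and brain, was dim, at 3.08 ± 0.15 in MIX and 3.24 ± 0.19 in ISe (± SD, 5 arrays per group).

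Retinoid metabolism was represented by 16 genes, 10 higher and 6 lower in MIX, with a median of 0.06 log2. DHRS3, which turns retinal back into retinol and is itself induced by retinoic acid, was the only one with an unadjusted p under 0.05, at 7.70 ± 0.17 in MIX and 7.37 ± 0.20 in ISe (± SD, 5 arrays per group), a log2 difference of 0.33 ± 0.11 (SE; adjusted p = 0.941, limma). ALDH1A1, which makes retinoic acid, stood at -0.13 ± 0.08, CRABP2, which carries it to the nucleus, at 0.22 ± 0.14 and RBP4, the plasma carrier of retinol, at -0.16 ± 0.11 (log2 difference ± SE).

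The NR2 and NR6 orphans were 8 genes, 6 higher and 2 lower in MIX, and none passed the test. NR2F2 (COUP-TFII), which is needed for venous and stromal development and acts in steroid-producing cells of the ovary and testis, read 10.41, 10.02, 10.06, 9.85 and 10.32 in MIX 1, 8, 9, 10 and 11, and 10.04, 10.03, 10.19, 10.21 and 10.15 in ISe 2, 3, 5, 6 and 7. The ISe samples fell inside the range of the MIX samples, which had MIX 1 and MIX 11 above them and MIX 8 and MIX 10 below. The difference was 0.003 ± 0.10 log2 (SE), and -0.05 without MIX 1 and MIX 8. NR2F1 (COUP-TFI), its paralog, read 8.97, 7.83, 8.57, 8.38 and 8.56 in MIX 1, 8, 9, 10 and 11, and 8.33, 8.33, 8.93, 8.79 and 8.91 in ISe 2, 3, 5, 6 and 7. MIX 8 was lowest, well below the others, and MIX 1 highest. The difference of NR2F1 was -0.20 ± 0.20 (log2 difference ± SE), -0.04 without MIX 8 and -0.32 without MIX 1.

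NR2F1 and NR2F2 moved together at r = 0.651 (rho = 0.758), with adjusted permutation p-values of 0.217 for r (unadjusted 0.0409) and 0.157 for rho (unadjusted 0.0148), and at 0.599 without MIX 1 and MIX 8, so the relation did not pass. NR2F2 had r = 0.201 with the mean of 12 mural cell and fibroblast markers (rho = 0.164) and r = 0.00536 with the mean of 12 endothelial markers (rho = 0.0788), and neither passed. All 12 endothelial markers had a higher mean in MIX (median 0.13 log2, 1 with an unadjusted p under 0.05), while with 1 array left out that count ran from 0 (without ISe 3, MIX 1 or MIX 10) to 5 (without ISe 5), and the list mean overlapped, at -0.06 to 0.24 in MIX and -0.18 to 0.16 in ISe. Of the mural and fibroblast markers 5 were higher and 7 lower in MIX. Of the lymphocyte markers 8 were higher and 3 lower (median 0.16 log2), with 2 of the higher ones at an unadjusted p under 0.05 by limma. Of the erythroid markers 3 were higher and 2 lower (0.01), and of the adipocyte markers 2 were higher and 4 lower (-0.02), each list with 1 lower marker at an unadjusted p under 0.05 by limma. Of the luteal steroidogenic markers 5 were higher and 2 lower (0.02), with 0 at an unadjusted p under 0.05 by limma, and 0 markers of these lists passed the adjusted threshold.

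NR2F6, another COUP-TF relative, had the third smallest p of the 35 receptors, at 7.73 ± 0.08 in MIX and 7.59 ± 0.15 in ISe (± SD, 5 arrays per group), a log2 difference of 0.14 ± 0.08 (SE; adjusted p = 0.941, limma). ISe 6 (7.38) and ISe 3 (7.47) were its low samples. The testicular receptors NR2C1 and NR2C2 stood at -0.02 ± 0.06 and 0.08 ± 0.08, and NR6A1, the germ cell nuclear factor, at 0.01 ± 0.07 (log2 difference ± SE). NR2C2 stood at -0.02 without MIX 1 and MIX 8. NR2E1 and NR2E3, known from brain and retina, were dim, at 0.13 ± 0.17 and 0.06 ± 0.08. For NR2E1 the arrays MIX 1, ISe 2, ISe 6 and MIX 8 carried 1 identical value, 3.90, and for NR2E3 the arrays MIX 1, ISe 5, ISe 6 and MIX 9 carried 4.84.

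Identical values on several arrays were a feature of the deposited table. Among the receptors 15 of 35 (42.9%) had at least 2 arrays equal to 5 decimals, as had 41.6% of all probesets tested. ESRRA had 4 equal arrays (ISe 3, ISe 7, MIX 8 and MIX 9, at 6.33). No pair of arrays was identical over the whole table. Ties lower the spread within a group, and how they arose was not tested.

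The NR4A receptors varied more between arrays than any other family of the list. These orphans are immediate early genes, induced within a short time by luteinizing hormone and other signals that raise cyclic AMP. NR4A1 read 7.38, 8.37, 8.66, 9.42 and 8.04 in MIX 1, 8, 9, 10 and 11, and 8.66, 8.74, 7.72, 7.99 and 8.72 in ISe 2, 3, 5, 6 and 7. The lowest and the highest of the 10 samples, MIX 1 and MIX 10, both belonged to MIX and were 4.11-fold apart. The group means were equal to 2 decimals, at 8.37 ± 0.75 and 8.37 ± 0.48 (± SD, 5 arrays per group), so the difference of 0.01 ± 0.34 (log2, SE) was far below the spread, and its interval allowed a fold change from 0.594 to 1.70. Leaving out 1 array moved it between -0.25 (without MIX 10) and 0.26 (without MIX 1), and it was 0.34 without MIX 1 and MIX 8.

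NR4A3 read 5.53, 6.25, 6.00, 6.80 and 5.61 in MIX 1, 8, 9, 10 and 11, and 5.75, 6.02, 5.41, 5.90 and 5.90 in ISe 2, 3, 5, 6 and 7. MIX 10 was again the highest and ISe 5 the lowest. The log2 difference was 0.24 ± 0.22 (SE; adjusted p = 0.941, limma), the largest of the 35 in size, and 0.05 without MIX 10 or 0.34 without MIX 1 and MIX 8. NR4A2 read 6.68, 6.45, 6.57, 7.36 and 6.11 in MIX 1, 8, 9, 10 and 11, and 6.67, 6.68, 6.68, 6.68 and 6.80 in ISe 2, 3, 5, 6 and 7. The ISe samples were nearly alike and the MIX samples spread on both sides of them, at 6.63 ± 0.46 against 6.70 ± 0.06 (± SD, 5 arrays per group). Its log2 difference was -0.07 ± 0.18 (SE), -0.25 without MIX 10 and 0.06 without MIX 11.

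**Figure D3:**
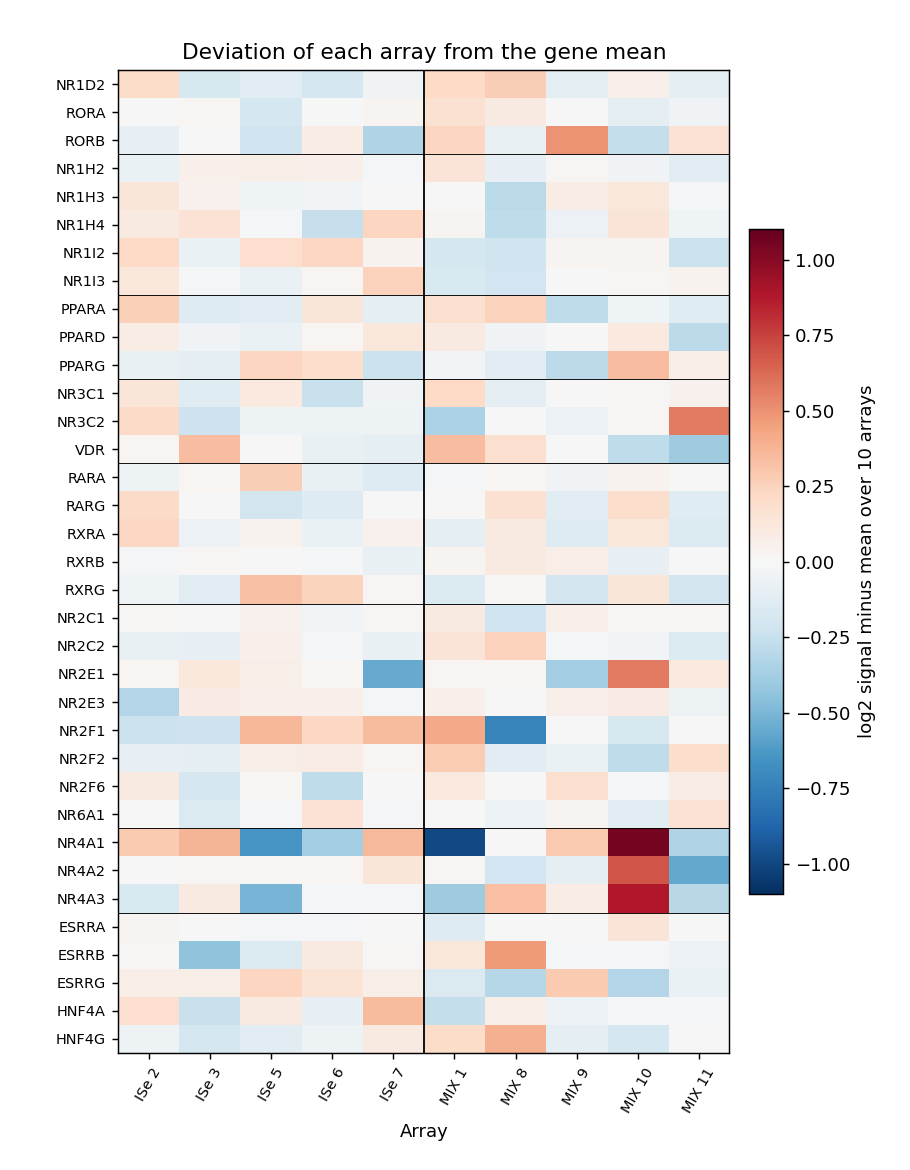
Log2 signal of each receptor (rows) on each array (columns) relative to the mean of that gene across the 10 arrays, with ISe left and MIX right of the vertical line, blue below and red above the mean. The strongest colours are those of NR4A1, NR4A2 and NR4A3 in MIX 10, of NR4A1 in MIX 1 and of NR2F1 in MIX 8.

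Ranked against all 19145 probesets by the SD within groups, pooled over both, NR4A1 stood at the percentile 99.3 (SD 0.63 log2), NR4A3 at 96.3 (0.40) and NR4A2 at 92.1 (0.33). NR2F1 at 94.5 (0.36) and NR2E1 at 90.4 (0.31) were the other receptors above the percentile of 90. Against probesets whose mean lay within 0.5 log2 of their own, the NR4A genes stood at 99.2, 96.2 and 93.7 in the same order, and NR2F1 at 96.4, but NR2E1 at 83.1. At the other end were RXRB at 4.10, ESRRA at 9.07 and NR1H2 at 13.8. The list as a whole was not unusual, with a median SD of 0.17 log2 against 0.15 over all probesets.

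**Figure D4:**
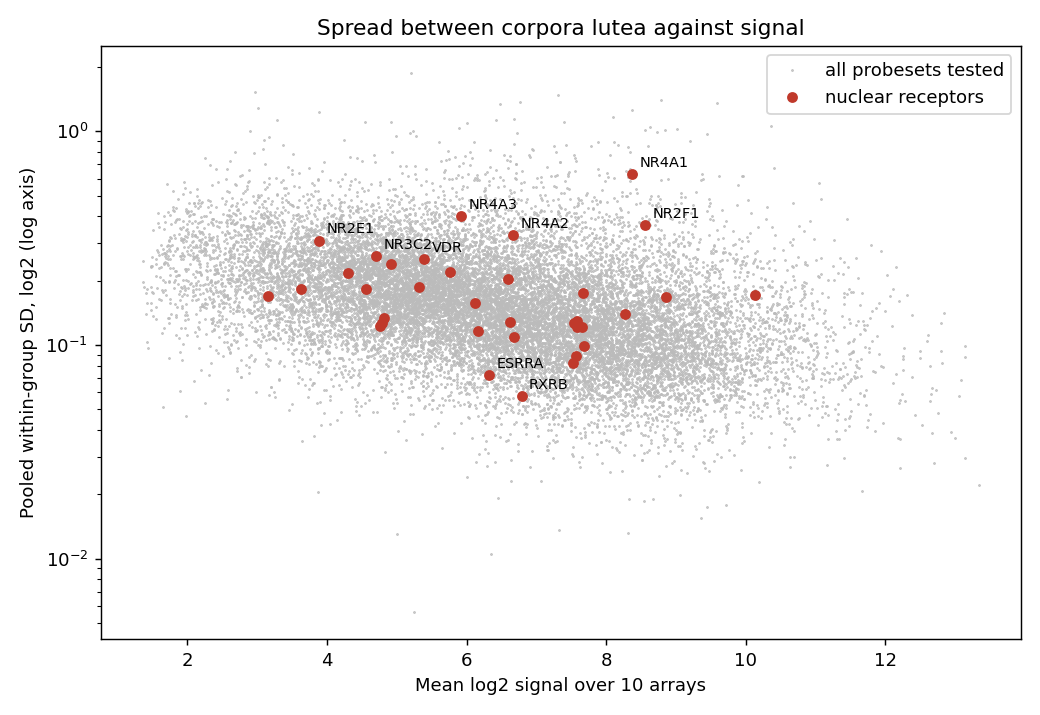
SD within groups, pooled over MIX and ISe (y axis, log scale), against the mean log2 signal over 10 arrays (x axis) for all 19145 probesets tested (grey) and the 35 receptors (red). NR4A1 lies at the upper edge of the cloud at its signal, and RXRB and ESRRA near the lower edge at theirs.

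The spread was larger in MIX than in ISe for 25 of the 35 receptors, against 62.6% of all probesets. With MIX 9, MIX 10 and MIX 11 alone it was larger for 21 of the 35 receptors, against 47.5% of all probesets. That SD rests on fewer arrays than the SD of ISe, so these shares cannot be set against those of the full groups. The highest or the lowest value of a receptor fell on MIX 1 in 11 cases, MIX 8 in 10, MIX 10 in 9, MIX 11 in 8 and MIX 9 in 6, and on single ISe arrays in 4 to 7 cases, where an even share is 7. This count is a description, and no difference in variance was tested.

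NR4A1 and NR4A3 moved together across the arrays at r = 0.821 (rho = 0.742). The adjusted permutation p-values over 18 pairs were 0.0734 for r (unadjusted 0.00408) and 0.157 for rho (unadjusted 0.0175), short of the threshold, whereas on deviations from the group means r was 0.864 and the adjusted p 0.0317. Adjusted over all 595 receptor pairs, the same deviations gave 0.214, which does not pass. Without MIX 1 and MIX 10, the samples farthest from the median of NR4A1, r was 0.609 and did not pass. The exact permutation p was 0.113 unadjusted and 0.370 adjusted over the 18 pairs, so the relation rested in part on those samples. NR4A1 had r = 0.548 with NR4A2 (rho = 0.394), which was 0.319 without the same samples. The list median of 11 other immediate early genes was -0.13 log2, with 3 higher and 8 lower in MIX and 0 with an unadjusted p under 0.05 by limma.

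FOS, an immediate early gene of the AP-1 family, had r = 0.463 with NR4A1 (rho = 0.588, adjusted permutation p = 0.365 and unadjusted p = 0.182 for r). It was highest in ISe 7 (8.79) and ISe 2 (8.20), while MIX 10, the highest sample of NR4A1, had 7.12. For NR4A1, ISe 7 and ISe 2 read 8.72 and 8.66, also on its high side. ISe 3, at 8.74 for NR4A1, had a FOS of 6.48. Within MIX, both genes were highest in MIX 10 and lowest in MIX 1, and on deviations from the group means r was 0.555 (adjusted permutation p = 0.244), which did not pass. FOS averaged 6.48 ± 0.42 in MIX and 7.42 ± 1.07 in ISe (± SD, 5 arrays per group), a log2 difference of -0.94 ± 0.44 (SE; adjusted p = 0.941, limma). JUNB stood at -0.35 ± 0.18 and FOSB at -0.34 ± 0.24, both AP-1 members, and JUN, another, at -0.13 ± 0.14 (log2 difference ± SE). The labels give neither the hour of collection nor the time from removal to freezing, so their part in the spread of these genes was not tested.

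**Figure D5:**
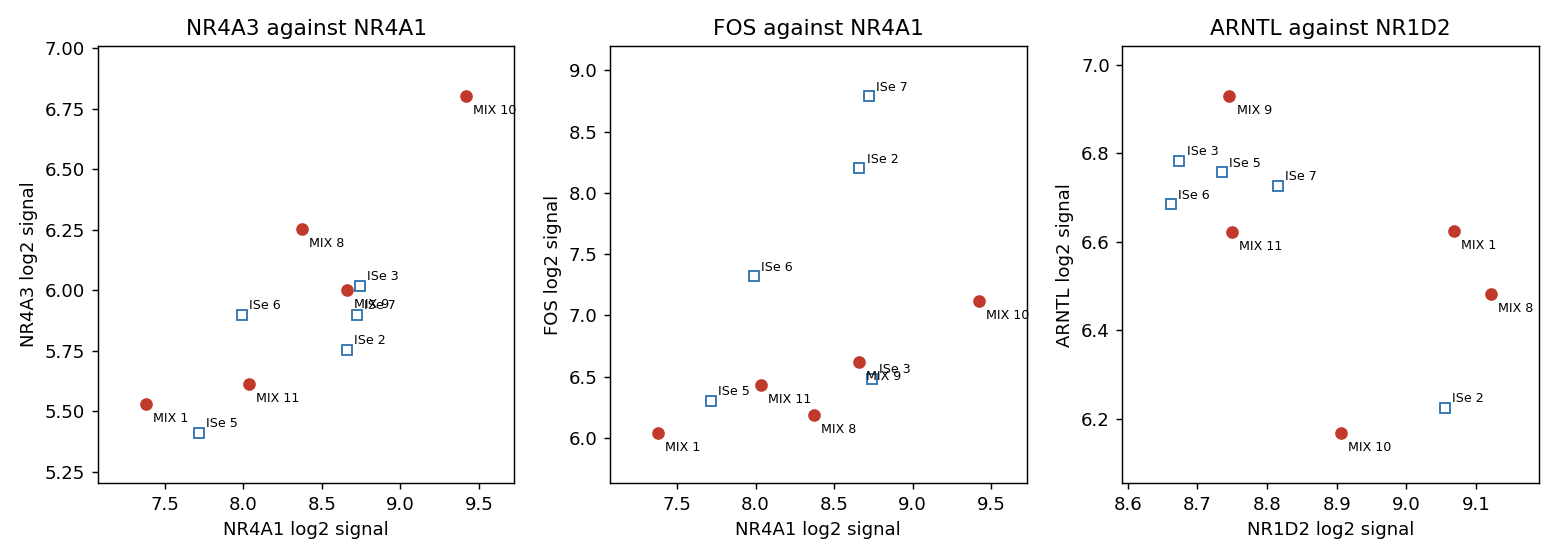
Log2 signals of NR4A3 and FOS against NR4A1, and of ARNTL against NR1D2, with 1 point per array (filled circles MIX, open squares ISe). NR4A1 and NR4A3 are both highest in MIX 10, ISe 7 and ISe 2 hold the highest FOS, and the arrays with low ARNTL, MIX 10 and ISe 2, lie on the high side of NR1D2. MIX 8 and MIX 1, the highest in NR1D2, have ARNTL of 6.48 and 6.62.

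The estrogen-related receptors are orphans that control mitochondrial genes together with the coactivator PGC-1, and they did not differ past the threshold. ESRRA was the steadiest of them, at 6.32 ± 0.10 in MIX and 6.32 ± 0.02 in ISe (± SD, 5 arrays per group), with MIX 10 at 6.46 and MIX 1 at 6.18 as extremes. ESRRG had the second smallest p of the 35 receptors. It read 4.40, 4.25, 4.85, 4.24 and 4.49 in MIX 1, 8, 9, 10 and 11, and 4.64, 4.63, 4.80, 4.72 and 4.63 in ISe 2, 3, 5, 6 and 7. All MIX samples but MIX 9 lay below every ISe sample, and MIX 9 lay above them all. The log2 difference was -0.24 ± 0.11 (SE; adjusted p = 0.941, limma), -0.34 without MIX 9 and -0.16 without MIX 1 and MIX 8, at signals among the dimmest 25%.

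ESRRB, known from embryonic stem cells and placenta, stood at 0.19 ± 0.13, and the liver and gut receptors HNF4A and HNF4G at -0.12 ± 0.11 and 0.12 ± 0.11 (log2 difference ± SE). ESRRB stood at 0.06 and HNF4G at -0.03 without MIX 1 and MIX 8. PPARGC1A, which encodes PGC-1 alpha, averaged 3.69 ± 0.51 in MIX and 3.51 ± 0.44 in ISe (± SD, 5 arrays per group), and had r = -0.333 with ESRRA (rho = -0.300). The 18 measured coregulators of nuclear receptors had a median difference of 0.03 log2, with 12 higher and 6 lower in MIX and 0 with an unadjusted p under 0.05 by limma. NCOA6, a coactivator, stood at 0.08 ± 0.05, LCOR, a ligand-dependent corepressor, at 0.08 ± 0.06, NCOA7, a coactivator, at 0.20 ± 0.17 and NCOA2, a steroid receptor coactivator, at 0.06 ± 0.06 (log2 difference ± SE).

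Every pair of the 35 receptors was also compared across the 10 arrays. Of 595 pairs, 303 had a positive r, 36 an unadjusted permutation p under 0.05, and 0 an adjusted p under 0.05 by r or by rho. The share over pairs of other probesets was not computed, so the count of 36 is a description. The smallest adjusted p, 0.0833, belonged to NR4A1 and ESRRA, at r = 0.883 and rho = 0.907, which ran from MIX 1, lowest in both, to MIX 10, highest in both, and kept r = 0.768 without those samples. ESRRA varied little, over a range of 0.28 log2 with 4 arrays at the same value. NR2F2 ran against NR4A1 at r = -0.893 (rho = -0.794), against ESRRA at r = -0.860 (rho = -0.857) and against NR4A3 at r = -0.829 (rho = -0.833). Without MIX 1 and MIX 10 these were -0.694, -0.577 and -0.661. In plain terms, MIX 1 was high in NR2F2 and low in NR4A1 and ESRRA, MIX 10 was the reverse, and the adjusted p-values of these pairs lay between 0.201 and 0.303.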

How the data were processed

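Total RNA of 10 bovine corpora lutea was labelled with biotin and hybridised to 1-colour Affymetrix arrays for whole transcripts, according to the protocols in the labels. The deposited values were read as log2 signal per probeset, from their range, and as already normalised between arrays, since their medians nearly coincide. The submitters' processing notes name GCOS 1.2 and Partek with no role; background correction, summarisation and normalisation: not given in the sources used here. Values were used as deposited. Probesets were named through the platform annotation: 18457 of 26773 had 1 symbol, 688 several and 7628 none. Current symbols, looked up by Entrez identifier, were unchanged for all 35 receptors.

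MIX was compared with ISe by linear models, 1 for each probeset, with variance moderation (limma 3.58.1, R 4.3.3), two-sided, adjusted by Benjamini-Hochberg over the 19145 probesets with at least 1 symbol, at a threshold of 0.05. The fit was tested on simulated data first. Correlations used two-sided permutation tests with 100000 resamples (numpy 2.4.6), exact for 8 arrays, adjusted over 18 gene pairs and, separately, over 595 receptor pairs. Sample titles gave the groups. No batch is named in the labels.

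The receptors, companion lists, marker lists and tests were chosen with earlier results of these data known. Named were all measured receptors, the 4 genes with the smallest p in each companion list and the genes of the fixed pairs, of which the pairs with NR1D1 and RARB could not be computed. The 4 pairs with NR1D2, the 595 pairs, the setting without MIX 1 and MIX 8 and the adipocyte mean without FABP4 were added after the data were seen, and CYP11A1 lies outside the naming rule. Alternatives were other normalisations, filters, moderation and weights, 1 probeset or the mean per gene, and leaving out each array.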

Additional observations from a re-analysis of the deposited data

Results flagged for a closer look

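Dixon's test at the critical value of 0.71 was run within groups of 5 arrays, 84 in all, 70 of them of receptors. It set 1 array apart for 6 receptors and 1 marker list. For normal values without ties, chance alone marks about 5% of such groups. Ties were common in these data, and the share flagged over all probesets is not given here. The flags are therefore a description. NR4A2 in ISe 7 was at 6.80 against 6.68 in the nearest ISe sample, a small step that stands out since the other ISe samples are nearly equal. RORA in ISe 5 was at 7.49 against 7.67, and VDR in ISe 3 at 5.74 against 5.41. NR2C1 in MIX 8 was at 7.35 against 7.58. At dim signal, NR2E1 in ISe 7 was at 3.33 against 3.90, and NR2E3 in ISe 2 at 4.46 against 4.76. The mean of the endothelial markers in ISe 5 was 0.158 against -0.0965 in the nearest ISe sample.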

How the results depend on the processing

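The count of receptors past the adjusted threshold was 0 under all 22 alternatives, and the count of probesets was 0 to 1 with 1 array left out (1 without MIX 8). The count of receptors with an unadjusted p under 0.05 was 1 to 3 with 1 array left out. It was 0 without the dimmest 25% or 50% of probesets, which left 25 and 18 receptors and removed NR1I2, and 0 without MIX 1 and MIX 8. Each receptor had 1 probeset, so filters, moderation, the set of probesets tested and the choice per gene could not change a log2 difference. Only the other normalisations, the array weights and leaving out arrays could change a sign. Under these NR1I2 kept its direction, as did 18 receptors in all. The other 17, with main differences of at most 0.12 log2 in size, changed sign in 53 values. The 743 values of all alternatives include those that could not change sign, so they are no measure of stability. With array quality weights NR2C1 at 0.00187, NR2F2 at -0.00395, PPARG at 0.0126, RARA at 0.0025 and ESRRA at 0.0118 had the other sign (log2 differences). Median centring put RARA at 0.000384 and ESRRA at 0.00134, and quantile normalisation put NR6A1 at -0.000567 and PPARG at 0.00391. Leaving out MIX 1 and MIX 8 put NR1H3 at 0.0405, NR2C1 at 0.019, NR2C2 at -0.0222, NR2F2 at -0.0508, PPARG at 0.0391, RORA at -0.0148, ESRRA at 0.0453 and HNF4G at -0.0343. With 1 array left out the median over the receptors ran from -0.0152 to 0.0219, and values that changed sign ran from -0.0358 to 0.0346 for ESRRA, -0.0811 to 0.0243 for NR1H3, -0.0426 to 0.036 for NR2C1, -0.0175 to 0.0867 for NR2E3, -0.0658 to 0.073 for NR2F2, -0.0642 to 0.166 for NR3C2, -0.255 to 0.255 for NR4A1, -0.251 to 0.0624 for NR4A2, -0.0331 to 0.0466 for NR6A1, -0.0746 to 0.0588 for PPARA, -0.0803 to 0.0197 for PPARD, -0.0916 to 0.0662 for PPARG, -0.0385 to 0.0652 for RARA and -0.159 to 0.024 for VDR; the cause was not tested.

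On deviations from the group means 1 of the 18 gene pairs passed (NR4A1 and NR4A3), against 0 on the values and 0 of the 595 receptor pairs on the same deviations, and NR2F2 with endothelial markers had r = -0.000705. Without the 2 samples farthest from the median, r was 0.540 for NR1H3 with ABCA1, 0.591 for NR1H3 with macrophage markers and -0.132 for NR2F2 with mural markers. Without MIX 1 and MIX 8 these were 0.0906, 0.155 and -0.058, and NR2F2 with endothelial markers was -0.221. No paired analysis was possible because the groups share no replicate number. The number of arrays and, for the 10 dimmest receptors, the dim signal limit what could be seen.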
